A study of Rattus norvegicus with 287 samples.

Results

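The genes described here are 29 genes of mitochondrial fatty acid oxidation and ketone body metabolism in rats, chosen by name. Of these, 28 were found by symbol among the 32623 genes of the deposited count table, and Eci2 is not analysed here. Their levels were followed in liver, skeletal muscle and kidney (128 RNA sequencing libraries, 55 of liver, 52 of muscle and 21 of kidney). Treated rats received focused ultrasound (pFUS) of 1.1 MHz for 3 min under isoflurane, directed to the porta hepatis, where vessels and nerves enter the liver. Control rats were anaesthetised too and received a sham stimulus without energy. The following models were used. Male Obese ZDF rats (Zucker Diabetic Fatty, a line whose obese animals lack a working leptin receptor) and male Lean Zucker rats were compared after 7 weeks of sham or pFUS, with 5 libraries per group in liver, 5 obese and 4 lean per group in muscle, and 5 obese per group and no lean group in kidney. Further male Obese ZDF rats, 4 per group, were studied after 3 days as sham, pFUS labelled AM only x1 and pFUS labelled AM only x10. Others, 4 per group, were studied after 4 weeks in 3 pFUS groups without a sham group of that duration. These were labelled AM & PM x1, AM only x10 and AM & PM x10. The labels do not say what x1 and x10 count. The label DIO-stz was read as diet-induced obesity with the drug streptozotocin. The 7-week DIO-stz groups held 2 female and 2 male sham rats and 1 female and 4 male pFUS rats (3 males in muscle), and 2 female DIO Diet Resistant rats had pFUS but no sham group. Ages and diets are not given in the labels, and each number in a title was read as 1 animal.

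Long-chain fatty acids are activated to acyl-CoA, passed into mitochondria as carnitine esters by Cpt1a or Cpt1b, Slc25a20 and Cpt2, and shortened in cycles of dehydrogenation, hydration, a further oxidation and thiolysis. Acadvl, Acadl, Acadm and Acads start the cycle on chains of decreasing length and hand electrons to Etfa, Etfb and Etfdh, Hadha and Hadhb form the trifunctional protein, and Eci1 and Decr1 deal with double bonds. The liver turns much of the acetyl-CoA into ketone bodies, while muscle and kidney burn it. Many of these genes are known targets of PPARα, the receptor encoded by Ppara, which binds as a dimer with RXR to a direct repeat of AGGTCA with 1 base between the repeats.

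A few of the genes carry a stretch like that repeat close to their start, shown here for their likeness to the known PPARα motif. RefSeq promoter windows (GRCr8, 250 bases before to 50 bases from the start) were found for 24 of the 29 genes, and not for Vnn1, Acadl, Acaa2, Decr1 and Cpt1b. The motif AGGTCANAGGTCA, searched on both strands with up to 2 mismatches, was found in 6 of these 24 and in 1263 of all 33469 windows (3.77%). The matched bases are in capitals, 5′ to 3′ on the strand of the gene.
Acadvl, chr10:55236694-55236738 (minus strand), 1 mismatch, bases 17 to 5 before the start: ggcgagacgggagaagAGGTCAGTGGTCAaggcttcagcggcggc
Ucp3, chr1:164227837-164227881 (plus strand), 2 mismatches, bases 57 to 45 before the start: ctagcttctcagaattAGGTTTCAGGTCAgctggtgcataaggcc
Slc25a20, chr8:118243580-118243608 (plus strand), 2 mismatches, bases 15 to 27 after the start: cttaatgtAGGTGAAAGGTCGgtgtagcc
Crat, chr3:34087294-34087338 (minus strand), 2 mismatches, bases 223 to 211 before the start: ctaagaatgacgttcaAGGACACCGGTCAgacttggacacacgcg
Creb3l3, chr7:9273110-9273154 (plus strand), 2 mismatches, bases 194 to 182 before the start: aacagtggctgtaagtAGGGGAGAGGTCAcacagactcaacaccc
Etfa, chr8:64788091-64788135 (minus strand), 2 mismatches with the motif on the opposite strand, bases 154 to 142 before the start: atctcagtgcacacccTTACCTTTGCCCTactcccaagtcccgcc
A match is a resemblance of letters and not a measured binding site.

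Total counts ran from 6027440 to 43088790 over the 128 libraries. Levels are counts per 1000000 of the library total (CPM), and differences are log2 fold changes ± standard error (SE) from edgeR's quasi-likelihood test, with Benjamini-Hochberg adjusted p over all genes tested and a threshold of 0.05. Markers of each tissue were present in the libraries labelled so (82224 to 232504 summed CPM of hepatocyte genes in liver, 52384 to 197052 of skeletal muscle genes in muscle, 5329.9 to 23862 of tubule genes in kidney). Lean control 15 in liver stood apart from its group (median correlation 0.887 with the others), as did DIO-stz pFUS 7 in liver (0.907), and DIO-stz pFUS 11 (0.859) and obese control 2 (0.892) in kidney. RNAs without a poly(A) tail made up at most 0.129% of counts in 7-week liver, kidney and obese or DIO muscle, but 4.05 to 9.32% in lean 7-week muscle, 3.97 to 8.44% in 3-day and 4-week liver and 1.66 to 7.29% in 3-day and 4-week muscle.

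Liver and muscle of sham-treated obese rats differed in most members. In liver against muscle, 16 of 28 members were higher and 4 lower (71.4% of them, against 68.5% of all genes, 34.4% higher and 34% lower, of 13964 tested), and the counts were the same when libraries were scaled by totals alone. The 16 include Acot1, which had 1 to 8 counts per library in liver and 0 in muscle. It entered the shared fit of the 3 tissues only through its kidney level. The entry step was split between the 2 forms of carnitine palmitoyltransferase. Cpt1a (ENSRNOG00000014254), the form named for liver, stood at 223, 229, 267, 454 and 233 CPM in liver, 8.39, 6.51, 5.62, 7.12 and 9.46 in muscle and 240.5, 194, 237, 267 and 124 in kidney. Cpt1b (ENSRNOG00000010438), the muscle form, had the reverse order, with 2.39, 1.61, 3.09, 1.34 and 1.04 CPM in liver, 263, 319, 232, 372 and 238 in muscle and 12.2, 13.2, 18.8, 12.1 and 11.5 in kidney. Liver and kidney overlapped for Cpt1a and both were far above muscle (5.25 ± 0.28 for liver over muscle, edgeR adjusted p = 4.09e-11), while for Cpt1b no 2 tissues overlapped (−7.26 ± 0.38, edgeR adjusted p = 2.85e-11). Crat, which moves acetyl groups between CoA and carnitine, stood at 454, 553, 536, 462 and 429 CPM in muscle, 223, 88.0, 191, 130.3 and 83.1 in kidney and 17.1, 16.4, 24.7, 20.1 and 24.3 in liver, again without overlap (−4.58 ± 0.32 for liver over muscle, edgeR adjusted p = 1.29e-09).

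**Figure D1:**
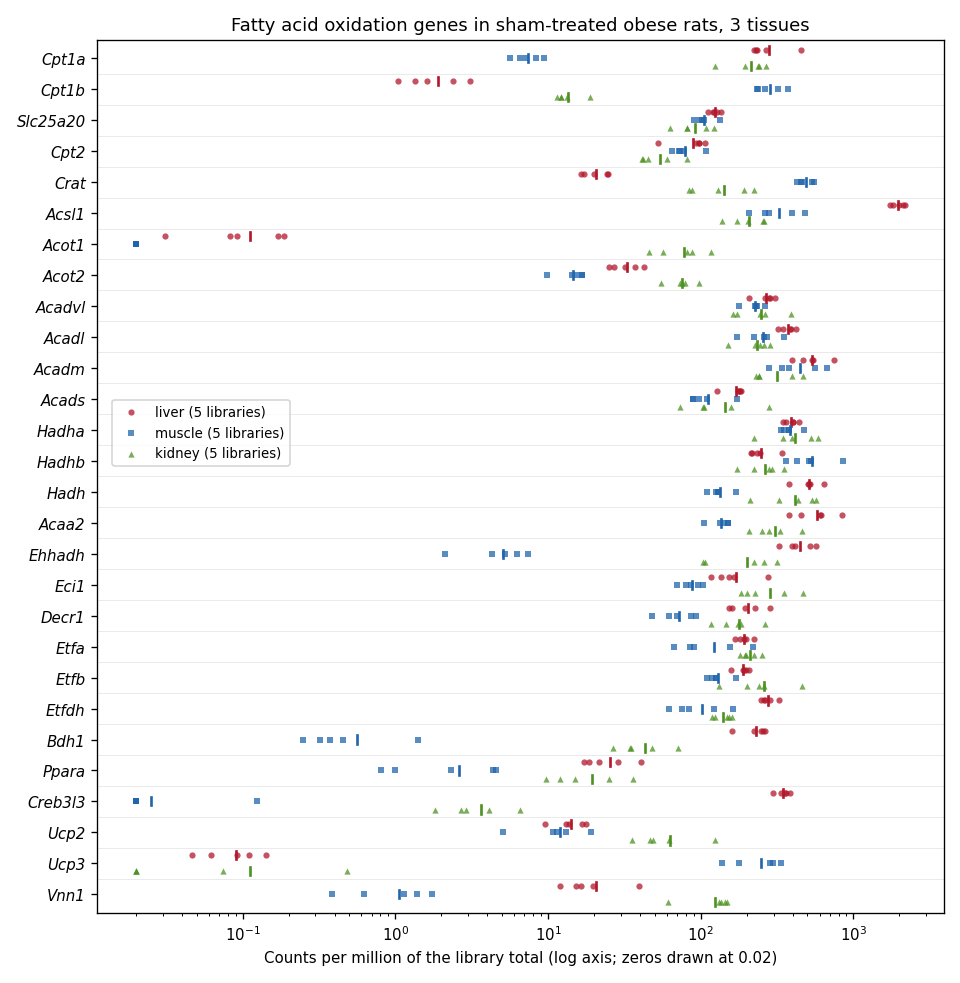
CPM (horizontal log axis) of each measured gene in the 5 sham-treated obese rats, by tissue (red circles liver, blue squares muscle, green triangles kidney), with short vertical lines at the means. Cpt1b, Crat and Ucp3 lie to the right in muscle, Bdh1, Ehhadh and Creb3l3 in liver, and Acot1 and Vnn1 in kidney, while the ranges of Acadvl, Acadm and Acads overlap between all 3 tissues.

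Of the 3 tissues, Bdh1, Ehhadh, Creb3l3 and Acsl1 were highest in liver. Bdh1, which interconverts acetoacetate and 3-hydroxybutyrate, stood at 246, 161, 262, 256 and 223 CPM in liver, 71.5, 34.3, 48.2, 34.7 and 26.5 in kidney and 0.249, 0.376, 0.452, 0.324 and 1.41 in muscle (8.71 ± 0.44 for liver over muscle, edgeR adjusted p = 2.18e-11). Ehhadh, the peroxisomal bifunctional enzyme, had 522, 325, 572, 395 and 412 CPM in liver, 317, 107, 259.8, 222 and 104 in kidney and 6.23, 5.26, 4.33, 2.10 and 7.43 in muscle (6.49 ± 0.42, edgeR adjusted p = 4.11e-10). Creb3l3, a membrane-bound transcription factor of the fasted liver, had 363, 295, 383, 337 and 356 CPM in liver, 6.58, 2.90, 4.10, 2.70 and 1.83 in kidney, and in muscle 0 in 4 libraries and 2 counts (0.125 CPM) in 1. For these 3 genes the order was liver, kidney, muscle, with no overlap between neighbours. Acsl1, which activates long-chain acids, had 2185, 1723, 1806, 2105 and 1989 CPM in liver, above 279.7, 264, 484, 207 and 395 in muscle and 257, 138, 205, 261 and 173 in kidney, where the last 2 overlapped. Outside the 3 tissues, Creb3l3 was higher in intestine of this group (593 to 965 CPM) than in liver. Acsl1 in adipose tissue (755 to 2900 CPM) overlapped liver. Bdh1 and Ehhadh were highest in liver among all 8 tissues.

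Of the 3 tissues, Ucp3 was highest in muscle, and Acot1 and Vnn1 in kidney. Ucp3 (ENSRNOG00000017716), an uncoupling carrier of the inner mitochondrial membrane, had 286, 298, 334, 177 and 139 CPM in muscle, and at most 5 counts per library in liver and in kidney. Acot1, a cytosolic acyl-CoA thioesterase, had 116, 56.8, 87.9, 81.4 and 45.7 CPM in kidney, 1 to 8 counts per library in liver and 0 in every muscle library. The kidney mean of 77.6 CPM was 311.6 times a limit of 3 counts per muscle library (0.249 CPM in the shallowest). That ratio holds for the mean with library totals, and not for each kidney library. Vnn1, a pantetheinase that frees cysteamine and pantothenate, had 131, 148, 137, 144 and 61.3 CPM in kidney, 16.3, 11.9, 39.6, 15.3 and 19.7 in liver and 1.74, 1.38, 0.388, 1.13 and 0.63 in muscle, with no overlap. Hadha overlapped between all 3 tissues, with 363, 343, 439, 402 and 405 CPM in liver, 349.8, 376, 476, 379 and 337 in muscle and 584, 343, 527, 393 and 223 in kidney. Of the 3 electron transfer genes, Etfdh had 285, 258, 326, 249 and 264 CPM in liver against 83.6, 75.8, 162, 61.9 and 123 in muscle and 159.7, 118, 149.6, 152 and 124 in kidney. It was higher in liver than in either under both scalings of libraries. Etfa was higher in liver than in muscle under both (0.68 ± 0.25, edgeR adjusted p = 0.0235), a call lost in 4 of 5 refits that left out 1 rat. Etfb did not pass. Acaa2, the last enzyme of the cycle for shorter chains, had 378, 611, 601, 450.4 and 837 CPM in liver, 462, 208, 329.7, 251 and 281 in kidney and 106, 142, 150.5, 150.3 and 133 in muscle, where liver and kidney overlapped and muscle lay below both. Acadm, the medium-chain dehydrogenase, had 541, 399, 745, 538 and 468 CPM in liver, 339, 279, 674, 379 and 557 in muscle and 469, 239, 241, 395 and 230.3 in kidney, all overlapping. Both genes were higher in liver than in kidney under both scalings. Acaa2 was lower in muscle than in kidney only with library totals, and not with the TMM factors of the tests (−0.15 ± 0.29, edgeR adjusted p = 0.673). Acadm was higher in muscle than in kidney only with TMM (1.53 ± 0.28, edgeR adjusted p = 0.000139).

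Comparisons with kidney depended on how libraries were scaled. With TMM factors 19 members were higher and 5 lower in liver than in kidney (85.7%, against 53.6% of all genes, 23.2% higher and 30.4% lower), and 11 higher and 9 lower in muscle than in kidney (71.4%, against 65.3% of all genes, 28.5% higher and 36.8% lower). With library totals alone these were 10 and 7, and 6 and 15. That scaling put the median log2 fold change of all genes at −1.16 and −1.25, against −0.09 and −0.17 with TMM. The shares of all genes past the threshold with library totals, or under both scalings, are not given here. Under both scalings 10 members were higher and 5 lower in liver than in kidney, and 6 higher and 9 lower in muscle than in kidney. The 5 lower in liver were Cpt1b, Crat, Acot1, Ucp2 and Vnn1, and the 6 higher in muscle were Cpt1b, Cpt2, Crat, Acsl1, Hadhb and Ucp3. Summed over the 28 members, levels were 7697 ± 781 CPM (SD, n = 5) in liver, 4737 ± 1318 (n = 5) in kidney and 4313 ± 681 (n = 5) in muscle. Liver lay above muscle in every library (6465 to 8630 against 3840 to 5511), while kidney (3374 to 6616) overlapped both. Oxct1, which lets tissues use ketone bodies, was lower in liver than in muscle (means 1.35 against 122 CPM, log2 fold change −6.42 ± 0.47, edgeR adjusted p = 2.41e-09).

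Livers of obese sham rats had more RNA of 5 members than livers of lean sham rats, and of none less. They were Acot2 (mitochondrial acyl-CoA thioesterase), Ehhadh, Acadl (long-chain dehydrogenase), Hadhb and Hadh, the last 2 being the thiolase of the trifunctional protein and the short-chain 3-hydroxyacyl-CoA dehydrogenase. That is 5 of 26 tested members (19.2%), against 14.3% of all genes, 8.14% higher and 6.15% lower, of 12585 tested, and the members' median log2 fold change was 0.25 against −0.04 for all genes. Acot1 and Ucp3 were too low in liver to be tested. Acot2 (ENSRNOG00000010134) had 31.9, 37.4, 42.3, 27.1 and 25.0 CPM in obese and 14.2, 18.4, 13.8, 10.8 and 9.31 in lean sham livers (log2 fold change 1.35 ± 0.19, edgeR adjusted p = 5.18e-05). Ehhadh (ENSRNOG00000001770) had 522, 325, 572, 395 and 412 CPM in obese against 245, 239, 299, 237 and 95.2 in lean (log2 fold change 1.04 ± 0.21, edgeR adjusted p = 0.00248). For both genes every obese library lay above every lean one, and lean control 15 was the lowest.

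Acadl (ENSRNOG00000012966) had 391, 323, 423, 384 and 345 CPM in obese and 226, 223, 245, 208 and 119 in lean sham livers (log2 fold change 0.91 ± 0.17, edgeR adjusted p = 0.00113). Hadhb (ENSRNOG00000010800) had 235, 216, 339, 245 and 213 CPM in obese and 142, 171, 165, 146 and 117 in lean (log2 fold change 0.77 ± 0.14, edgeR adjusted p = 0.000879), and Hadh (ENSRNOG00000010697) 502, 380.1, 639, 519.7 and 508 against 378, 360.0, 333, 338 and 367 (log2 fold change 0.51 ± 0.15, edgeR adjusted p = 0.0250). None of the 3 overlapped between groups, but the difference of Hadh was small and missed the threshold in 4 of 10 refits that left out 1 library (up to adjusted p = 0.0761 without obese control 3). Cpt1a did not overlap either but did not pass. Of the 26 members tested, 6 did not overlap, against 11.5% of all genes. Without lean control 15, 8 members passed, all upward, as Crat (1.40, edgeR adjusted p = 0.00528), Hadha (0.65, 0.00509) and Eci1 (0.79, 0.0324) joined the 5. The share of all genes passing in that refit is not given here. The entry genes did not pass, with Cpt1a at 0.60 ± 0.28 (edgeR adjusted p = 0.147) and Cpt2 at −0.41 ± 0.20 (edgeR adjusted p = 0.162). Ppara itself was at 0.22 ± 0.35 (edgeR adjusted p = 0.708), with 17.1, 21.7, 40.9, 18.6 and 28.9 CPM in obese and 24.6, 28.1, 26.9, 30.1 and 4.94 in lean livers.

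**Figure D2:**
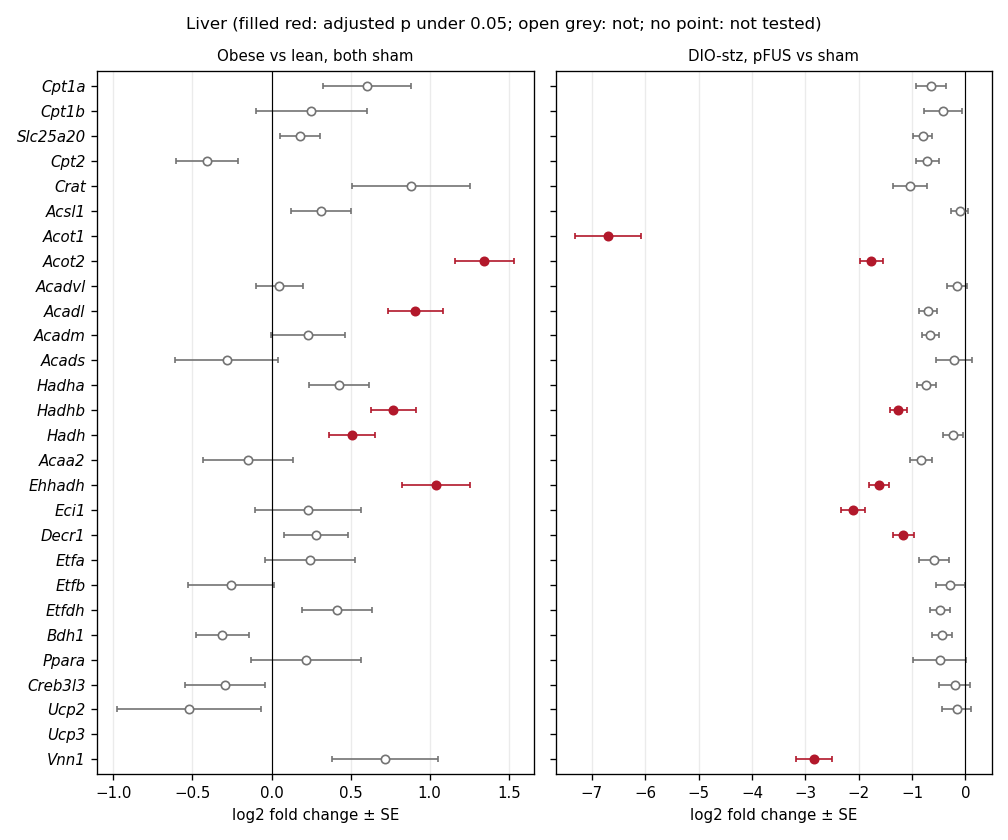
Log2 fold change ± SE (horizontal) of each tested gene in liver, for obese against lean sham rats (left) and for DIO-stz pFUS against sham rats (right), with genes past the threshold in filled red. In the left panel 5 genes pass and all lie to the right of 0, and in the right panel 7 pass and all 27 points lie to the left of 0.

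Lists of neighbouring pathways gave further differences in obese liver. Of 22 tested genes of peroxisomal and omega oxidation 8 were higher and 1, Hacl1, lower, the higher ones including Cyp4a1 (1.31 ± 0.20, edgeR adjusted p = 0.000149), a fatty acid omega-hydroxylase, and Crot (1.32 ± 0.31, 0.00689), which exports shortened acyl groups from peroxisomes. Of 16 regulators and malonyl-CoA genes 8 were higher and none lower, led by Pdk4 (3.36 ± 0.39, edgeR adjusted p = 6.40e-06), the kinase that shuts off pyruvate dehydrogenase, the hormone gene Fgf21 (3.28 ± 0.51, 0.000212) and the lipid droplet protein gene Plin2 (3.02 ± 0.27, 4.18e-07). Of 8 genes of ketogenesis and ketone use 2 were higher, Slc16a1 (1.21 ± 0.20, 0.000318), a carrier of lactate and ketone bodies, and Acat1 (0.42 ± 0.14, 0.0450), which lost the call in 9 of 10 refits. Macrophage markers moved too, with 5 of 8 higher and summed levels of 311 to 499 CPM in obese and 104 to 329 in lean controls. Clock genes were 2 higher and 7 lower of 13, and total counts were 21726174 to 43088790 in obese and 13752172 to 23512019 in lean controls. The part of these in the result was not tested, and in bulk tissue fewer cells of a type and less RNA per cell cannot be told apart.

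After 7 weeks of pFUS no member passed the threshold in liver, in obese rats (0 of 26, against 0.397% of all genes, 0.0477% higher and 0.35% lower) or in lean rats (0 of 26, against 0.389% of all genes, 0.103% higher and 0.286% lower). Members with an unadjusted p under 0.05 numbered 4 in each, against 1017 and 3005 of all 12585 genes. DESeq2 called 0 in obese rats and 1, Ppara, in lean rats. Shares of all genes called by DESeq2 in 7-week liver are not given here, so its counts do not set the members apart. Cpt1a had 562, 576, 359.8, 582 and 502 CPM in obese pFUS livers against 223, 229, 267, 454 and 233 in obese sham (log2 fold change 0.78 ± 0.28, edgeR adjusted p = 0.348), and 47.6, 44.5, 156, 162 and 139.9 in lean pFUS against 188, 204, 188, 219 and 137 in lean sham (log2 fold change −0.61 ± 0.28, edgeR adjusted p = 0.189). Obese sham rat 4 was in the range of the treated rats, and the other 4 lay below all 5 of them. Ppara had 32.8, 40.6, 27.6, 34.6 and 33.2 CPM in obese pFUS livers (log2 fold change 0.31 ± 0.35, edgeR adjusted p = 1.000) and 3.38, 2.55, 7.65, 10.3 and 12.2 in lean pFUS livers (log2 fold change −1.45 ± 0.36, edgeR adjusted p = 0.0550). In lean rats the treated livers lay below the sham livers except for lean control 15, at 4.94 CPM. The difference of the 2 effects (obese minus lean) was 1.39 ± 0.39 for Cpt1a and 1.77 ± 0.50 for Ppara (edgeR adjusted p = 0.115 for both). For it 0 of 26 members passed, against 0.405% of all genes, 0.159% higher and 0.246% lower, with 3 members and 1938 genes at an unadjusted p under 0.05 and 2 members called by DESeq2.

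Cpt2, the inner-membrane partner of Cpt1a, had 159, 188, 125, 134 and 168 CPM in obese pFUS livers and 93.0, 52.9, 96.8, 97.0 and 107 in obese sham (log2 fold change 0.71 ± 0.20, edgeR adjusted p = 0.151), without overlap. It was the only 1 of 26 members without overlap, and 3.42% of all genes did not overlap, which does not set the members apart. The largest change in obese livers was that of the scarce Cpt1b, with 1.21, 1.2, 0.934, 1.28 and 0.882 CPM against 2.39, 1.61, 3.09, 1.34 and 1.04 in sham (log2 fold change −0.86 ± 0.35, edgeR adjusted p = 0.478), and the groups overlapped. One library decided the lean comparison. Without lean control 15, 8 members passed in lean rats, Ppara downward (−1.68, edgeR adjusted p = 0.000492) and 7 upward, Acads, Hadh, Decr1, Etfb, Bdh1, Creb3l3 and Ucp2, with the largest change in Ucp2 (1.25, edgeR adjusted p = 0.00360). The difference of effects then passed in 6 members, upward in Cpt1a (1.41, edgeR adjusted p = 0.020), Cpt2 (0.71, 0.0232) and Ppara (1.99, 0.00472) and downward in Acads, Etfb and Ucp2. The shares of all genes passing without lean control 15 are not given here, so neither count sets the members apart from other genes. Clock gene levels, summed, were 709 to 870 CPM in lean sham and 358 to 739 in lean pFUS livers, and 198 to 389 in obese sham and 474 to 660 in obese pFUS livers, and their part was not tested. Of the neighbouring lists a single gene passed, Pdk4, which fell in obese pFUS livers (log2 fold change −2.91 ± 0.38, edgeR adjusted p = 0.000903, means 19.6 against 136 CPM). Its difference of effects also passed (−3.11 ± 0.51, edgeR adjusted p = 0.00668).

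After 3 days of pFUS in obese rats, Cpt1a rose in liver in both treated groups and Ppara in the group labelled x1. These were 2 of 26 members for x1 (7.69%, against 0.593% of all genes, 0.33% higher and 0.263% lower, of 11809 tested) and 1 of 26 for x10 (3.85%, against 1.19% of all genes, 0.457% higher and 0.728% lower), and both comparisons share the same 4 sham rats. Cpt1a had 191, 261, 206 and 181 CPM in sham livers, 379, 519, 307 and 327 in x1 and 448, 297, 475 and 322 in x10. All 8 treated livers lay above all 4 sham livers (x1 0.88 ± 0.19, edgeR adjusted p = 0.0474, and x10 0.84 ± 0.19, 0.0423). Ppara had 54.2, 67.7, 45.0 and 56.2 CPM in sham livers, 124, 102, 66.6 and 93.5 in x1 and 87.4, 88.2, 75.8 and 82.7 in x10 (x1 0.81 ± 0.16, edgeR adjusted p = 0.0334, and x10 0.54 ± 0.16, 0.139). The x10 livers lay above all sham livers, while the lowest x1 liver lay just under the highest sham liver. Each of the 3 calls was lost in 6 of 8 refits that left out 1 library, with adjusted p up to 0.131 for Cpt1a and 0.0986 for Ppara. For x1, 3 of 26 members did not overlap with sham, 1 higher and 2 lower, against 6.55% of all genes. For x10 this was 3 of 26, 2 higher and 1 lower, against 7.51% of all genes.

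**Figure D3:**
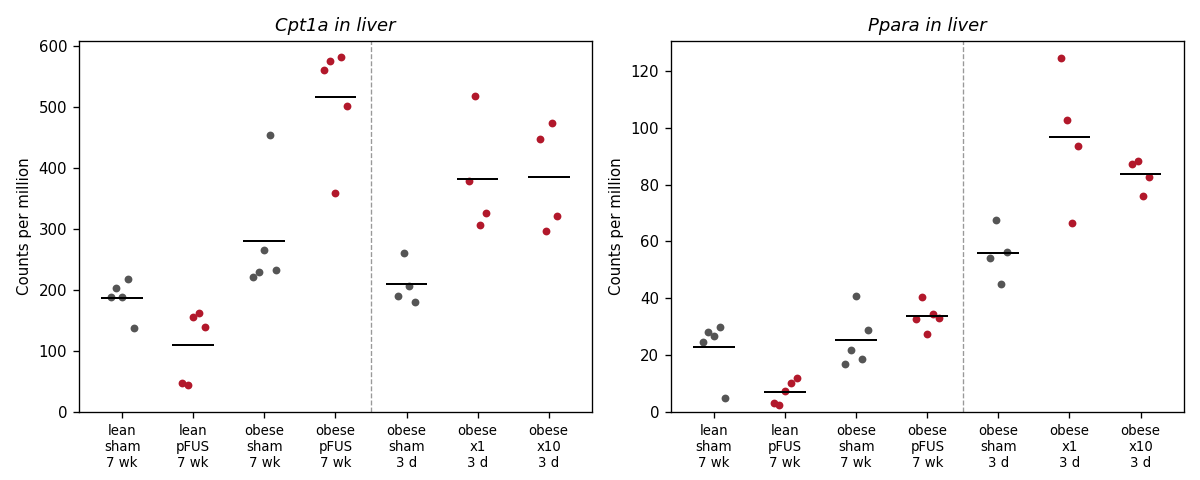
CPM of Cpt1a (left) and Ppara (right) in liver, 1 point per library, with black lines at group means, grey for sham and red for pFUS, and a dashed line between the 7-week and 3-day cohorts. Treated obese livers lie high at 3 days and, for Cpt1a, at 7 weeks apart from 1 sham rat, while treated lean livers lie low, at 44.5 to 162 CPM of Cpt1a.

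No other member passed after 3 days, and the members' median log2 fold changes were −0.07 for x1 and −0.05 for x10. Bdh1 and Hadh lay lower in both groups without passing, Bdh1 at −0.32 ± 0.11 and −0.36 ± 0.11 (edgeR adjusted p = 0.199 and 0.138) and Hadh at −0.30 ± 0.10 and −0.30 ± 0.10 (0.207 and 0.211). Among 16 regulators, Nrip1, a corepressor of nuclear receptors, fell in both groups (−0.65 ± 0.12 and −0.55 ± 0.12, edgeR adjusted p = 0.0156 and 0.0316). Ppargc1b, a coactivator of mitochondrial genes, rose with x1 (0.97 ± 0.17, edgeR adjusted p = 0.0156), and Angptl4, an inhibitor of lipoprotein lipase, fell with x10 (−1.46 ± 0.26, edgeR adjusted p = 0.0262). Ppard, which encodes the receptor PPARδ, also fell with x10 (−2.02 ± 0.37, edgeR adjusted p = 0.0313, means 5.54 against 22.1 CPM). Slc16a1 of the ketone list fell too (−0.72 ± 0.16, 0.0402). Of 8 refits that left out 1 library, the x1 calls of Nrip1 and Ppargc1b were each lost in 3. The x10 calls of Angptl4, Ppard, Nrip1 and Slc16a1 were lost in 3, 5, 5 and 7. Summed clock genes were 340 to 418 CPM in sham, 420 to 673 in x1 and 520 to 747 in x10 livers, with no overlap of treated and sham. RNAs without a poly(A) tail made up 4.61 to 5.25% of counts in sham, 5.91 to 7.50% in x1 and 3.97 to 6.19% in x10 livers. The part of both was not tested. The 4-week groups, which have no sham rats, had Cpt1a at 407, 331, 269 and 410.2 CPM in the group labelled AM & PM x1, 386, 410.1, 419 and 531 with AM x10 and 427, 361, 507 and 689.7 with AM & PM x10. These 12 values all lie above the 4 sham livers of the 3-day cohort, a comparison across durations.

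In DIO-stz rats, livers of the pFUS group had less RNA of 7 members than sham livers, and of none more. They were Acot1, Vnn1, Eci1, Acot2, Ehhadh, Hadhb and Decr1, which is 7 of 27 tested (25.9%), against 0.883% of all genes, 0.239% higher and 0.644% lower, of 12113 tested. Of these, Acot1 entered the fit only through its sham livers, so it could pass only as lower. All 27 members had a log2 fold change below 0, with a median of −0.66 against 0.04 for all genes. The groups did not overlap for 13 of the 27, nor for 4.47% of all genes tested. Summed over the 28 members, sham livers had 12029 to 13866 CPM and pFUS livers 7176 to 8691. In sham livers the values are given as females 3 and 4 and males 5 and 6, and in pFUS livers as males 7, 8, 9 and 10 and female 11. Eci1 (ENSRNOG00000008843), which shifts double bonds of unsaturated acids, had 680.0, 693, 576 and 542 CPM in sham and 152, 168, 163, 132 and 84.0 in pFUS livers (log2 fold change −2.11 ± 0.23, edgeR adjusted p = 0.00578). Ehhadh had 1013, 945, 763 and 922 CPM in sham and 226, 335, 293, 217 and 251 in pFUS (log2 fold change −1.62 ± 0.19, edgeR adjusted p = 0.00637). Hadhb had 467, 478, 374 and 497 CPM in sham and 165, 166, 206, 168 and 159 in pFUS (log2 fold change −1.26 ± 0.16, edgeR adjusted p = 0.00764). For each of these the highest treated liver lay below the lowest sham liver.

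Vnn1 (ENSRNOG00000016219) had 129, 156, 81.9 and 159 CPM in sham and 14.1, 15.9, 31.8, 10.7 and 12.9 in pFUS livers (log2 fold change −2.84 ± 0.34, edgeR adjusted p = 0.00670). Decr1 (ENSRNOG00000008236), the reductase for dienoyl-CoA, had 382, 418, 321 and 403 CPM in sham and 190.4, 181, 168, 156 and 114 in pFUS (log2 fold change −1.16 ± 0.20, edgeR adjusted p = 0.0287), a call lost in 8 of 9 refits that left out 1 library. The thioesterase Acot1 had the largest fitted change, though it entered the fit only through its sham livers. In sham livers its level lay higher in the females. Acot1 (ENSRNOG00000055221) had 139.7, 111, 3.72 and 3.60 CPM in sham livers, and 0, 0.125, 0.132, 0.140 and 0.419 in pFUS livers, which are 0 to 8 counts per library (log2 fold change −6.69 ± 0.62, edgeR adjusted p = 8.97e-05, a fitted value that depends on the prior count at such low levels). The 2 sham females were above the 2 sham males, and the single treated female was the highest treated rat, but all 5 treated rats lay below all 4 sham rats. Acot2 had 214, 188, 77.5 and 103 CPM in sham and 31.0, 22.4, 36.3, 24.0 and 38.5 in pFUS livers (log2 fold change −1.76 ± 0.22, edgeR adjusted p = 0.00689). Acot1 and Acot2 lie in a cluster with Acot3, Acot4, Acot5 and Acot6 on chromosome 6, and reads of such similar copies could be split between them, so their separate values are uncertain. Acot3 and Acot4 were also lower in every treated liver (15.0 to 25.5 against 4.98 to 6.84 CPM, and 39.1 to 93.5 against 15.2 to 24.3). Acot5 (158, 133, 21.5 and 8.03 CPM in sham, 7.76 to 26.2 in pFUS) and the barely detected Acot6 (0 to 0.699 and 0 to 0.367) overlapped between groups.

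**Figure D4:**
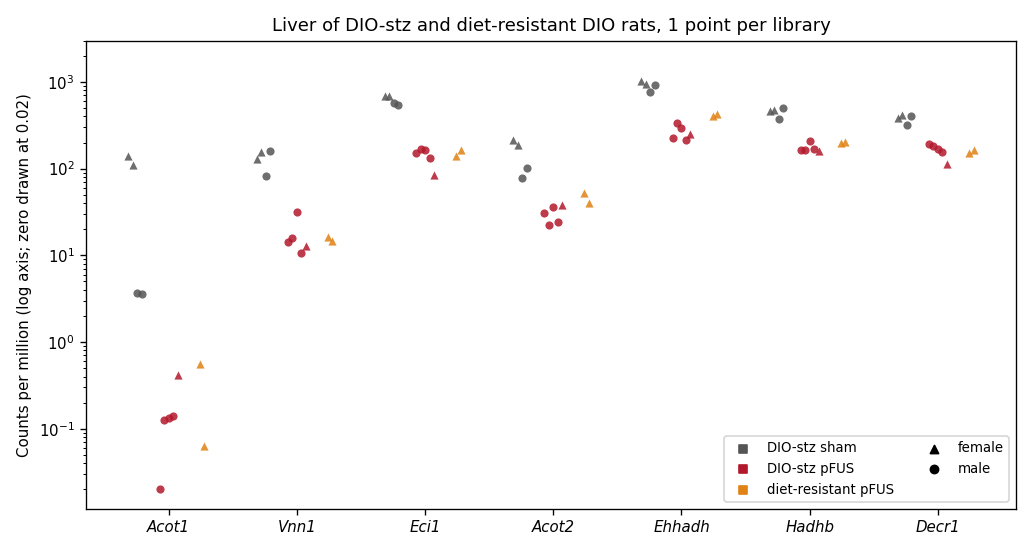
CPM (vertical log axis) of the 7 genes past the threshold in DIO-stz liver, 1 point per library, in sham (grey), pFUS (red) and diet-resistant pFUS rats (orange), triangles for females and circles for males. Every red point lies below every grey point of the same gene, and the 2 orange points lie closer to the red than to the grey ones.

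The other members of the liver pathway lay lower without passing, among them Slc25a20 (−0.80 ± 0.18, edgeR adjusted p = 0.106), Acadl (−0.70 ± 0.16, 0.119), Hadha (−0.73 ± 0.18, 0.146) and Acaa2 (−0.84 ± 0.21, 0.148). Cpt1a was at −0.64 ± 0.29 (edgeR adjusted p = 0.585) and Ppara at −0.48 ± 0.50 (0.972). Peroxisomal and omega oxidation went the same way, with 7 of 23 tested genes lower and 1 higher, Cyp4a8, whose groups overlapped. Ech1, a dienoyl-CoA isomerase, fell (−1.99 ± 0.24, edgeR adjusted p = 0.00670), as did Cyp4a1 (−1.76 ± 0.17, 0.00578) and Phyh, which starts the breakdown of phytanic acid (−1.55 ± 0.23, 0.0172). The carnitine carrier Slc22a5 fell (−1.70 ± 0.19, edgeR adjusted p = 0.00631), and of 16 regulators 1 passed, the higher Acaca (2.03 ± 0.24, 0.00670), which makes malonyl-CoA, the inhibitor of Cpt1a. Of 8 genes of ketogenesis and ketone use 1 fell, Bdh2 (−1.11 ± 0.21, 0.0436).

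Sex and single libraries limited the DIO-stz comparison. With male livers alone (2 sham and 4 pFUS) Acot1 passed (−5.07, edgeR adjusted p = 0.0174), again entering the fit only through its sham livers. The other 6 kept their direction without passing, from −0.996 for Decr1 to −2.68 for Vnn1 (adjusted p 0.0747 for Eci1 to 0.453 for Decr1). The listed genes Cyp4a1, Slc22a5, Ech1, Acaca, Phyh and Bdh2 did not pass in males alone either (edgeR adjusted p = 0.0611, 0.1004, 0.107, 0.203, 0.203 and 0.601). Without DIO-stz pFUS 7 there were 8 that passed, all lower. Without the treated female 11, 4 passed, and Acot2, Hadhb and Decr1 did not (adjusted p = 0.0525, 0.0528 and 0.196), nor did Acaca, Phyh and Bdh2 (0.0712, 0.0753 and 0.276). The 2 diet-resistant females with pFUS had 139 and 163 CPM of Eci1, 406 and 424 of Ehhadh and 16.1 and 14.8 of Vnn1, closer to the treated than to the sham DIO-stz livers. There was no diet-resistant sham group, so model and treatment cannot be told apart. Summed hepatocyte markers were 107093 to 153367 CPM in sham and 122753 to 232504 in pFUS livers, and summed macrophage markers 331 to 397 and 204 to 407, with overlap in both.

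In muscle, 20 members were higher and 2 lower in obese than in lean sham rats. That is 22 of 26 tested (84.6%), against 52.6% of all genes, 27% higher and 25.5% lower, of 12577 tested, and the members' median log2 fold change was 0.97 against 0.07 for all genes. RNAs without a poly(A) tail made up 0.0277 to 0.0573% of counts in obese and 4.05 to 9.32% in lean sham muscle, though the labels name 1 library kit. Model and this difference cannot be told apart. With genes split into 4 equal sets by span, the median log2 fold changes of all genes were 0.67, 0.30, −0.10 and −0.66 from the shortest set to the longest. In these sets 53.0%, 33.0%, 17.6% and 6.59% of all genes were higher. Members higher numbered 4 of 5, 8 of 9, 6 of 9 and 2 of 3 in these sets, and members lower 0, 0, 1 and 1. Without the RNAs that carry no poly(A) tail 18 members were higher and 2 lower.

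**Figure D5:**
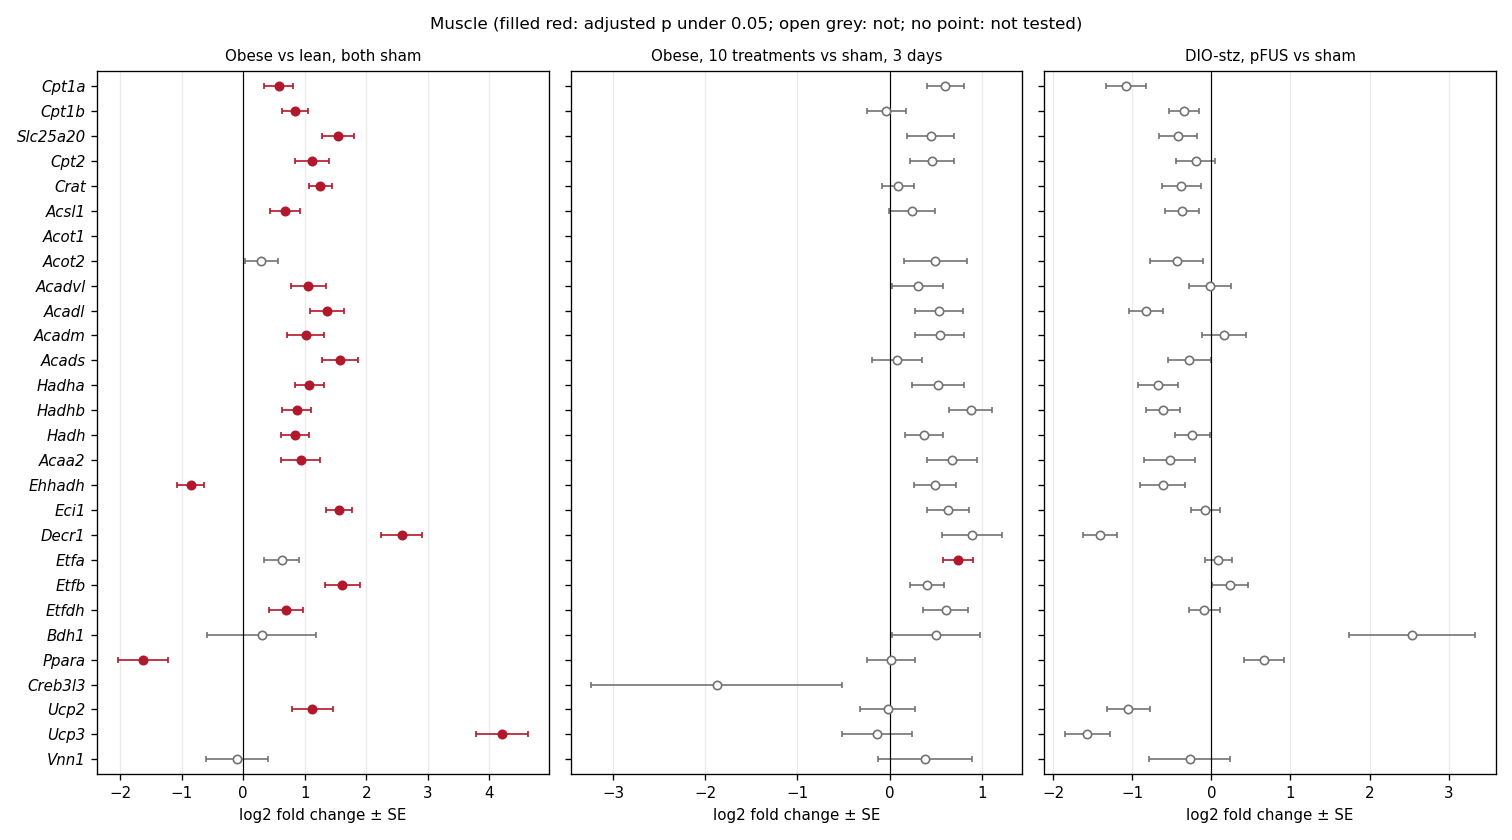
Log2 fold change ± SE (horizontal) of each tested gene in muscle, for obese against lean sham rats (left), 3 days of pFUS labelled x10 against sham in obese rats (middle) and DIO-stz pFUS against sham rats (right), with genes past the threshold in filled red. The left panel has 22 red points, 20 of them to the right of 0, the middle panel has 1 (Etfa) and the right panel none.

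Ucp3 differed most, with 286, 298, 334, 177 and 139 CPM in obese and 20.3, 19.5, 8.70 and 9.43 in lean sham muscle (log2 fold change 4.21 ± 0.43, edgeR adjusted p = 7.15e-07). Decr1 had 48.2, 69.7, 86.2, 92.4 and 61.7 CPM in obese and 14.9, 13.2, 12.6 and 11.8 in lean (log2 fold change 2.58 ± 0.34, edgeR adjusted p = 9.89e-06). The lowest obese muscle lay far above the highest lean one for both. Slc25a20, the carnitine-acylcarnitine carrier, had 105, 98.7, 134, 101 and 90.2 CPM in obese and 46.3, 37.0, 37.8 and 36.5 in lean muscle (log2 fold change 1.55 ± 0.26, edgeR adjusted p = 0.000112), and Eci1 79.7, 96.6, 86.4, 103 and 69.7 and 35.4, 35.0, 26.9 and 31.8 (log2 fold change 1.56 ± 0.21, edgeR adjusted p = 1.69e-05). Among the dehydrogenases, Acads, for short chains, had 109, 88.5, 97.7, 172 and 89.1 CPM in obese and 44.0, 50.1, 34.8 and 35.7 in lean (log2 fold change 1.57 ± 0.29, edgeR adjusted p = 0.000280), and Acadl 222, 270.1, 352, 173 and 261 and 123, 102, 102 and 98.0 (log2 fold change 1.36 ± 0.28, edgeR adjusted p = 0.000561). Etfb, a subunit of the electron transfer flavoprotein, had 126, 127, 118, 171 and 109.9 CPM in obese and 56.3, 47.0, 42.7 and 42.0 in lean (log2 fold change 1.61 ± 0.29, edgeR adjusted p = 0.000187). None of these 5 overlapped between groups. Of the 26 members tested, 17 did not overlap, against 32.8% of all genes.

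The 2 members that were lower in obese muscle were Ppara and Ehhadh, the latter chosen for mention after its values were seen. Ppara had 2.33, 1.00, 4.39, 0.809 and 4.54 CPM in obese and 10.0, 7.75, 7.71 and 8.6 in lean sham muscle (log2 fold change −1.63 ± 0.41, edgeR adjusted p = 0.00289), and Ehhadh 6.23, 5.26, 4.33, 2.10 and 7.43 and 10.1, 8.33, 9.99 and 9.85 (log2 fold change −0.85 ± 0.22, edgeR adjusted p = 0.00387), both without overlap. Cpt1b, the muscle entry enzyme, was higher (0.84 ± 0.21, edgeR adjusted p = 0.00291), as were Cpt2 (1.12 ± 0.27, 0.00231), Crat (1.25 ± 0.18, 3.33e-05) and Acadvl (1.06 ± 0.28, 0.00436). Etfa, Acot2, Bdh1 and Vnn1 did not pass, and Acot1 and Creb3l3 were too low to be tested. The calls of Cpt1a, Acsl1, Acaa2 and Etfdh were lost in 5, 3, 2 and 6 of 9 refits that left out 1 library.

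Among genes of neighbouring lists Fabp3, the fatty acid binding protein of muscle, was higher (3.07 ± 0.61, edgeR adjusted p = 0.000565), as were Angptl4 (7.26 ± 0.54, 5.97e-10) and Pdk4 (3.86 ± 0.46, 3.72e-06). Of 15 regulators 6 were higher and 5 lower, the latter including Nrip1 (−2.84 ± 0.28, edgeR adjusted p = 5.34e-07). Of 17 peroxisomal genes 5 were higher and 2 lower, against 52.6% of all genes, 27% higher and 25.5% lower. Markers of other fibre and cell types moved with the group. Slow fibre genes were higher in 8 of 9 (summed 752 to 2393 CPM in obese and 91.8 to 322 in lean muscle) and adipocyte genes in 8 of 8 (182 to 673 and 55.3 to 89.6), and their part was not tested.

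Few members differed with pFUS in muscle. After 7 weeks 0 of 26 passed in obese rats (against 0.119% of all genes, 0.0398% higher and 0.0795% lower, with 2 members and 722 genes at an unadjusted p under 0.05, and 1 member, Ucp3, called by DESeq2) and 0 of 26 in lean rats (against 0% of all genes, with 7 members and 734 genes at an unadjusted p under 0.05, and 0 and 32 called by DESeq2). The difference of the 2 effects passed in 0 of 26 (against 0% of all genes, with 4 members and 542 genes at an unadjusted p under 0.05, and 0 and 13 by DESeq2). Ucp3 had 91.2, 42.1, 64.1, 184 and 82.5 CPM in obese pFUS against 286, 298, 334, 177 and 139 in obese sham muscle (log2 fold change −1.55 ± 0.35, edgeR adjusted p = 0.125). Treated rat 9 lay in the sham range and the other 4 below every sham rat. The share of all genes called by DESeq2 in obese muscle is not given here. In lean rats Bdh1 had 8.73, 5.31, 0.842 and 0.0955 CPM with pFUS and 0.805, 0.327, 0.494 and 0.315 with sham (log2 fold change 3.04 ± 0.82, edgeR adjusted p = 0.441), 2 treated rats being high. Summed hepatocyte markers ran from 9.89 to 1999 CPM in those treated muscles and from 7.59 to 24.1 in lean sham muscles, and the part of liver RNA in Bdh1 was not tested. The difference of effects for Bdh1 was −2.69 ± 1.12 (edgeR adjusted p = 1.000).

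After 3 days, 0 of 27 members passed for x1 (against 0.00816% of 12259 genes tested, with 0 members and 1277 genes at an unadjusted p under 0.05 and 0 members by DESeq2). Ucp3 had the largest change there, with 37.5, 86.4, 79.4 and 40.3 CPM against 159.6, 81.9, 131 and 66.9 in sham muscle (log2 fold change −0.83 ± 0.38, edgeR adjusted p = 0.484), and the groups overlapped. For x10, 23 of 27 members lay above 0 with a median log2 fold change of 0.46. Of all genes 50.5% lay above 0, with a median of 0.0048. Of the 27 members 1 passed (3.7%, against 1.52% of all genes, 0.669% higher and 0.848% lower). It was Etfa (ENSRNOG00000015233), with 180.1, 174, 184 and 262 CPM in x10, 97.5, 153, 112 and 131 in x1 and 133, 109, 115 and 114 in sham muscle (log2 fold change 0.74 ± 0.16, edgeR adjusted p = 0.0433). The x10 muscles lay above all sham muscles, but the call was lost in 7 of 8 refits. RNAs without a poly(A) tail made up 3.92 to 6.65% of counts in x10 and 1.99 to 2.66% in sham muscle, without overlap, and the part of this in the result was not tested. Hadhb and Decr1 did not overlap between x10 and sham either, at 0.88 ± 0.23 (edgeR adjusted p = 0.0644) and 0.90 ± 0.32 (0.141). The groups did not overlap for 3 of the 27 members, nor for 12.3% of all genes, which does not set the members apart. Summed slow fibre genes were 2025 to 13323 CPM in x10 and 937 to 6936 in sham muscle, and adipocyte genes 167 to 1319 and 70.4 to 275, with overlap in both, and their part was not tested.

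In DIO-stz muscle 0 of 26 members passed (against 0% of 11956 genes, with 9 members and 1111 genes at an unadjusted p under 0.05, and 5 and 199 called by DESeq2). The groups did not overlap for 9 of the 26, all lower with pFUS, nor for 8.26% of all genes. Ucp3 had 599, 565, 561 and 422 CPM in sham and 148, 245, 164 and 129 in pFUS muscle (log2 fold change −1.57 ± 0.28, edgeR adjusted p = 0.144). Decr1 had 157, 104, 87.7 and 110.1 CPM in sham and 32.1, 37.5, 33.6 and 49.2 in pFUS (log2 fold change −1.41 ± 0.21, edgeR adjusted p = 0.0910). All 4 treated muscles lay below all 4 sham muscles for both genes. The largest fitted change was that of Bdh1, with 0.517, 0.120, 0.645 and 0.0567 CPM in sham and 1.05, 1.28, 0.130 and 4.16 in pFUS muscle (log2 fold change 2.54 ± 0.80, edgeR adjusted p = 0.360), and the groups overlapped. DESeq2 called Decr1, Ucp3, Cpt1a, Acadl and Ucp2, all lower. Adipocyte markers summed to 269 to 383 CPM in sham and 96.3 to 179 in pFUS muscle, without overlap, and their part was not tested.

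In kidney no member passed with pFUS. In obese rats this was 0 of 27 (against 0.105% of 13359 genes, with 0 members and 1006 genes at an unadjusted p under 0.05 and 0 members called by DESeq2), and the members' log2 fold changes ran from −0.43 to 0.36. Creb3l3 had the largest, with 2.17, 3.49, 2.58, 2.37 and 2.35 CPM in pFUS and 6.58, 2.90, 4.10, 2.70 and 1.83 in sham kidneys (log2 fold change −0.43 ± 0.34, edgeR adjusted p = 0.787), overlapping throughout. In DIO-stz rats it was 0 of 27 (against 0% of 13720 genes, with 9 members and 1589 genes at an unadjusted p under 0.05, and 4 and 281 called by DESeq2). There Creb3l3 had 29.1, 17.9, 10.4 and 21.9 CPM in sham and 1.19, 4.03, 3.88, 2.45 and 0.756 in pFUS kidneys (log2 fold change −3.39 ± 0.54, edgeR adjusted p = 0.102). Every treated kidney lay below every sham kidney. The groups did not overlap for 2 of the 27 members, nor for 6.8% of all genes, which does not set the members apart. The other member without overlap was Bdh1, which lay higher. It had 31.5, 25.6, 23.7, 27.5 and 34.4 CPM in pFUS and 17.3, 17.3, 19.0 and 18.0 in sham kidneys (log2 fold change 0.43 ± 0.19, edgeR adjusted p = 0.440). The 4 members called by DESeq2 were Creb3l3, Eci1, Decr1 and Cpt1b, all lower. No member passed in edgeR either without DIO-stz pFUS 11, or in obese kidney without obese control 2. Acot1, at the bottom of its range in treated DIO-stz liver, was at 95.5, 86.3, 27.1 and 49.3 CPM in sham and 62.9, 57.1, 68.2, 60.6 and 95.1 in pFUS kidneys of the same rats (log2 fold change 0.23 ± 0.22, edgeR adjusted p = 0.778), which overlapped. Among the neighbouring lists Pdk4 fell in obese kidney (log2 fold change −3.18 ± 0.52, edgeR adjusted p = 0.0491), a call lost in 8 of 10 refits.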

How the data were processed

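The deposited gene table holds expected counts, present as whole numbers and not normalized. The submitters' processing notes name STAR 2.5.3a, RSEM and the build Rnor_6.0, while no source used here names the annotation release. Libraries of liver, muscle and kidney were made with a stranded mRNA kit, per the labels' protocols. Counts per isoform were not used.

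CPM are counts scaled to a library total of 1000000. Differences were tested with edgeR 4.0.16 (R 4.3.3) on TMM-scaled counts, with filterByExpr at a minimum count of 10, robust quasi-likelihood tests and Benjamini-Hochberg adjustment over all genes (threshold 0.05). SE was computed as the size of the log2 fold change divided by the root of the F statistic. Groups of a cohort and tissue shared 1 fit, and DIO-stz fits held a sex term. Each fit was tested on simulated data. Values in every sample are given for members past the threshold, up to 8 per comparison by size of change, and for the largest change where none passed. Further members were named after their values were seen, among them Cpt1a, Ppara and Cpt2 in 7-week liver. Of each further list up to 4 genes past the threshold with a mean of at least 5 CPM in one group could be named. The members and lists were chosen with earlier results of these data known.

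The fits were repeated with DESeq2 1.42.0, with RLE factors, without the filter, with the 2 groups alone, without the sex term, with males alone, without RNAs that lack a poly(A) tail in muscle, without single libraries and, added after seeing the data, library totals alone and unadjusted deviances. Same-numbered tissues were read as 1 animal from their titles. Over 15 pairs of tissues of the obese sham rats, deviations from the tissue means correlated at −0.52 to 0.31 (median 0.016). The p-values measure variation between these numbered animals. Python 3.11.15, numpy 2.4.6, pandas 2.3.3 and matplotlib 3.10.9 were used.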

Additional observations from a re-analysis of the deposited data

Results flagged for a closer look

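In 11 of 75 sets of a member in a group of 4 or 5 libraries, 1 library lay far from the others by a gap that chance gives in about 1 of 20 sets. Muscle of lean control 11 was high for Acadl (123 CPM), Acadm (294), Hadh (96.3) and Slc25a20 (46.3), so these 4 come from 1 library, and muscle of lean control 12 was low for Ehhadh (8.33). Muscle of obese control 4 was high for Acads (172) and Etfb (171). Liver of obese control 3 was high for Hadhb (339), and liver of DIO-stz pFUS 9 was high for Hadhb (206) and Vnn1 (31.8), though still below every sham liver. Muscle of x10 rat 40 was high for Etfa (262 CPM).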

How the results depend on the processing

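The number of members past the threshold is given for each alternative that moved it by more than 1.5 times, and the cause was not tested. Shares of all genes are not given in this section, so its counts do not set the members apart from other genes. With DESeq2 it was 1 in lean pFUS liver, 2 for the difference of pFUS effects in liver, 2 in x10 liver, 12 in DIO-stz liver, 1 in obese pFUS muscle, 3 in x10 muscle, 5 in DIO-stz muscle and 4 in DIO-stz kidney. With library totals alone it was 1 in lean pFUS liver and 1 in x1 liver. Without the filter it was 1 in x1 liver, 0 in x10 liver and 1 in DIO-stz muscle. With only the 2 groups compared it was 1 in x1 liver and 0 in x10 muscle. Male DIO-stz livers alone gave 1. Leaving out lean control 15 and obese pFUS 7 together gave 8 for obese against lean liver, 1 for obese pFUS, 8 for lean pFUS and 6 for the difference of effects.

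Leaving out 1 library gave 4 to 8 members for obese against lean liver, 0 to 8 for lean pFUS liver, 0 to 6 for the difference of effects, 0 to 2 in x1 liver, 0 to 1 in x10 liver, 4 to 8 in DIO-stz liver and 19 to 22 for obese against lean muscle. It gave 0 to 1 in obese pFUS, lean pFUS, x10 and DIO-stz muscle. The highest counts in lean pFUS liver and for the difference of effects came without lean control 15.

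Library totals alone moved the median of all genes by over 0.1 in several fits, to −0.24 in lean pFUS liver, 0.32 for the difference of effects in liver and 0.25 in DIO-stz kidney. Of the differences against kidney past the threshold with TMM, 5 changed sign with library totals alone. In liver against kidney these were Hadha (−0.086 in place of 0.96), Hadhb (−0.074 in place of 0.97) and Etfa (−0.13 in place of 0.92), and in muscle against kidney Acadvl (−0.13 in place of 0.91) and Hadha (−0.11 in place of 0.95). With the animal as a replicate block the tissue counts were 20, 24 and 20, as without it. No paired analysis was possible for the other comparisons because their groups hold different animals.

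Depth was at least 6027440 counts, yet Acot1 and Ucp3 in 7-week and 3-day liver and Acot1 and Creb3l3 in 7-week muscle fell under the filter. With 4 or 5 rats per group, a missed threshold does not show that groups were alike.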
